A study of Mus musculus with 6 samples.

Results

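The odorant receptors (ORs) described here are 45 genes named Olfr with a number. The numbers lie in the ranges Olfr720 to Olfr750, Olfr1359 to Olfr1370 and Olfr1507 to Olfr1513. The rule uses names alone and no measured value, though it was chosen with earlier results of these data known. They are 45 of the 1097 ORs named with a number and without a pseudogene suffix, and 45 of the 24661 genes in the data. The ranges hold 29, 9 and 7 genes, and 5 of the numbers they span belong to no such gene. RNA was sequenced from the olfactory mucosa, that is the olfactory epithelium (OE) and the tissue around it, in 3 wild-type and 3 RTP1,2DKO animals. Both groups are of the C57BL/6 strain and were taken at post natal day 21, and the methods describe sex-matched littermates of 2 males and 1 female per group, from a line made in hybrid ES cells and backcrossed. RTP1,2DKO mice carry no functional copy of Rtp1 or Rtp2, since the coding regions of both genes were replaced in the germ line. The deletion is therefore present in every cell and at every age.

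An olfactory sensory neuron (OSN) expresses 1 allele of 1 OR gene, so that the RNA of an OR in bulk tissue reflects both the number of OSNs that chose it and the RNA each of them holds. OR genes lie in clusters, and OSNs that express a given OR are found in a restricted zone of the OE along its dorsal to ventral axis. RTP1 and RTP2 are small membrane proteins that help ORs reach the cell surface. The Olfr1507 to Olfr1513 range is the MOR28 cluster, which lies beside the H element, the first enhancer described for OR genes. Deletion of the H element is known to affect the nearest genes of the cluster, Olfr1507 (MOR28), Olfr1508 (MOR10) and Olfr1509 (MOR83).

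The 7 genes of the MOR28 cluster follow each other on chromosome 14 in the order of their numbers, over 148.3 kb (GRCm38, chr14:52347495-52495749), with Olfr1507 at the H element side. All are protein coding and all but Olfr1509 are on the minus strand. The transcript starts lie 28.3, 52.8, 81.4, 98.4, 116.6 and 139.3 kb from that of Olfr1507 for Olfr1508 to Olfr1513, where Olfr1509, which runs the other way, is counted from its own start. The first 60 bases of each coding sequence (GENCODE M21) are shown because the neighbours in this cluster are near copies of each other, which bears on how reads were assigned to them. Capitals mark the bases that differ, position by position, from Olfr1507 in Olfr1508 and Olfr1509, from Olfr1510 in Olfr1511, and from Olfr1512 in Olfr1513.
Olfr1507, chr14:52490903-52490962 (-): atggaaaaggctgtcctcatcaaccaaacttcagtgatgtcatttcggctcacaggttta
Olfr1508, chr14:52463948-52464007 (-): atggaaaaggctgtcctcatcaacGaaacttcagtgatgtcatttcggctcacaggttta
Olfr1509, chr14:52450415-52450474 (+): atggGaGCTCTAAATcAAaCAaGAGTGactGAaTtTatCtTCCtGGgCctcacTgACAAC
Olfr1510, chr14:52410811-52410870 (-): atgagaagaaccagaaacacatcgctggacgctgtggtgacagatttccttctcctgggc
Olfr1511, chr14:52390712-52390771 (-): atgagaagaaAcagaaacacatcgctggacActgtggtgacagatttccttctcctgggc
Olfr1512, chr14:52372992-52373051 (-): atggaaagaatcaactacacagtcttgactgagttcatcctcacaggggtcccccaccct
Olfr1513, chr14:52349985-52350044 (-): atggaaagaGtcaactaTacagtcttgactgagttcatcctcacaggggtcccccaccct
In this window Olfr1508 differs from Olfr1507 at 1 base and Olfr1509 at 36 bases, Olfr1511 differs from Olfr1510 at 2 bases, and Olfr1513 differs from Olfr1512 at 2 bases. Over the whole coding sequence, Olfr1507 and Olfr1508 are 93.0% identical, Olfr1510 and Olfr1511 97.3%, and Olfr1512 and Olfr1513 96.0%, against 67.0% for Olfr1507 and Olfr1509.

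Longer identical stretches exist within each pair, and a read that falls inside one of them cannot be placed by sequence. The longest such run of Olfr1507 and Olfr1508 has 143 bases (chr14:52490171-52490313 in Olfr1507, minus strand), and that of Olfr1512 and Olfr1513 has 133 bases (chr14:52372458-52372590 in Olfr1512, minus strand).
Olfr1507 and Olfr1508: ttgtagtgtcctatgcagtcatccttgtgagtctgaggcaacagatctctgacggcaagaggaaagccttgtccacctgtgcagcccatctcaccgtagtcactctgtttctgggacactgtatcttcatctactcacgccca
Olfr1512 and Olfr1513: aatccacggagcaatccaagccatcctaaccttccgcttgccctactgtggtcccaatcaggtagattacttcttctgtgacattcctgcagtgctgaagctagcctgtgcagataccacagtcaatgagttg
Between Olfr1510 and Olfr1511 the longest run has 274 bases. Outside these runs the transcripts differ more. Of the 31-base words of a gene's transcripts, the share found in no other gene was 89.1% for Olfr1507, 94.5% for Olfr1508, 100% for Olfr1509, 69.2% for Olfr1510, 57.9% for Olfr1511, 69.9% for Olfr1512 and 80.4% for Olfr1513. Olfr1510 to Olfr1513 thus had the smallest shares of words of their own in this cluster, and for them the sum of each pair is given below as well.

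The libraries held 31125410 to 41636996 estimated counts, of which 0.721% to 1.13% were on ORs. Rtp1 had 20522, 25301 and 13543 normalised counts in the wild-type mice and 90.6, 85.5 and 109 in RTP1,2DKO, and Rtp2 had 8497, 9510 and 7157 against 58.0, 26.2 and 51.0, as the genotype labels say. Normalised counts are estimated counts divided by a size factor computed over all genes (0.907 to 1.15). The defining genes of mature OSNs were abundant in every mouse, as the tissue label requires, and 7 of the 8 on the list (Omp, Gnal, Adcy3, Cnga2, Cnga4, Cngb1, Gng13 and Stoml3) fell in RTP1,2DKO, with a median log2 fold change of -1.07. Their summed normalised counts were 159005 to 182615 in the wild-type and 80606 to 87199 in RTP1,2DKO. In bulk tissue, fewer OSNs and less RNA per OSN cannot be told apart. Of 6 markers of immature OSNs, Gap43 and Gng8 rose, and the list had a median of 0.44. No gene of the sustentacular, basal, Bowman gland, respiratory ciliated, macrophage or ventral zone lists passed the test. Of 4 blood genes 1 rose (Hbb-bt, a hemoglobin chain), and the list had a median of 0.76. Of the 2 dorsal zone genes Nqo1 fell by 0.66 on the log2 scale. With the replicate number as a block, all 8 mature and 4 of the 6 immature OSN genes passed the test, and no blood gene did (Hbb-bt, adjusted p = 0.0506 against 0.0485 without the block). The part of these markers in the values below was not tested.

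ORs were compared in 2 ways. The all-gene fit, which uses size factors over all genes, asks whether an OR's share of all RNA differed. The OR-normalised fit, which uses only ORs, asks whether an OR differed relative to the typical OR. Each used edgeR's quasi-likelihood test, p-values adjusted by Benjamini-Hochberg over all genes or ORs tested and a threshold of 0.05, and fold changes are RTP1,2DKO over wild-type. In the all-gene fit 460 of 1089 ORs passed the test (42.2%), 47 higher (4.32%) and 413 lower (37.9%), with a median log2 fold change of -1.06 over ORs and 0.02 over all 22152 genes tested, of which 3.61% passed. In the OR-normalised fit 54.6% of ORs passed, 315 higher (28.9%) and 280 lower (25.7%), with a median of -0.12.

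The genes of the MOR28 cluster did not move together. The 3 genes nearest the H element, Olfr1507 to Olfr1509, had mean counts that were higher in RTP1,2DKO, whereas 3 of the 4 genes farther away fell, by 1.40 to 1.93 on the log2 scale. In the all-gene fit no gene of the cluster rose and 3 fell, beside 4.32% and 37.9% of all ORs. With the replicate block 2 rose, beside 6.34% of all ORs. Without the block the median log2 fold change was 0.17, above the OR median of -1.06. In the OR-normalised fit 4 of the 7 rose and 2 fell, beside 28.9% and 25.7% of all ORs, with a median of 1.11. The size of these rises depends on the scaling. As a share of all OR counts, Olfr1507 to Olfr1509 together held 1.44%, 0.878% and 1.10% in the wild-type. In RTP1,2DKO they held 1.92%, 1.41% and 1.78%, and the groups overlapped.

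Olfr1507 (MOR28), the gene next to the H element and a receptor of the ventral zone, was the most abundant OR of the cluster, with 2891, 2166 and 2400 normalised counts in the wild-type mice and 3634, 2219 and 3247 in RTP1,2DKO. The groups overlapped, because RTP1,2DKO replicate 2 lay within the wild-type range. Its log2 fold change was 0.29 (SE 0.17, adjusted p = 0.616) in the all-gene fit and 1.22 (SE 0.24, adjusted p = 3.3e-05) in the OR-normalised fit. It held between 55.8% and 60.2% of the counts of its cluster in every mouse of either group.

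Olfr1508 (MOR10), the near copy of Olfr1507, had 1342, 711 and 792 normalised counts in the wild-type and 1639, 1026 and 1687 in RTP1,2DKO. Replicate 2 was the lowest mouse of each group, and wild-type replicate 1 lay above RTP1,2DKO replicate 2, so that the groups overlapped. The log2 fold change was 0.61 (SE 0.23, adjusted p = 0.277) in the all-gene fit, and with the replicate number as a block it was 0.63 and passed the test (adjusted p = 0.0324). Olfr1508 rose by 1.56 on the log2 scale relative to the typical OR (SE 0.25, adjusted p = 6.8e-07).

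Olfr1509 (MOR83), a receptor known to respond to a sulfur compound of male mouse urine, had 395, 260 and 218 normalised counts in the wild-type and 537, 452 and 516 in RTP1,2DKO. On this scale it was the only gene of the cluster for which no RTP1,2DKO mouse was as low as any wild-type mouse. This was so for 11.8% of all ORs. The log2 fold change was 0.78 (SE 0.21, adjusted p = 0.0605), and 0.82 with the replicate block, where it passed the test (adjusted p = 0.0154). In the OR-normalised fit Olfr1509 rose by 1.74 (SE 0.23, adjusted p = 1.9e-08). All of its 31-base words are its own, so no other gene of the annotation shares them.

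**Figure D1:**
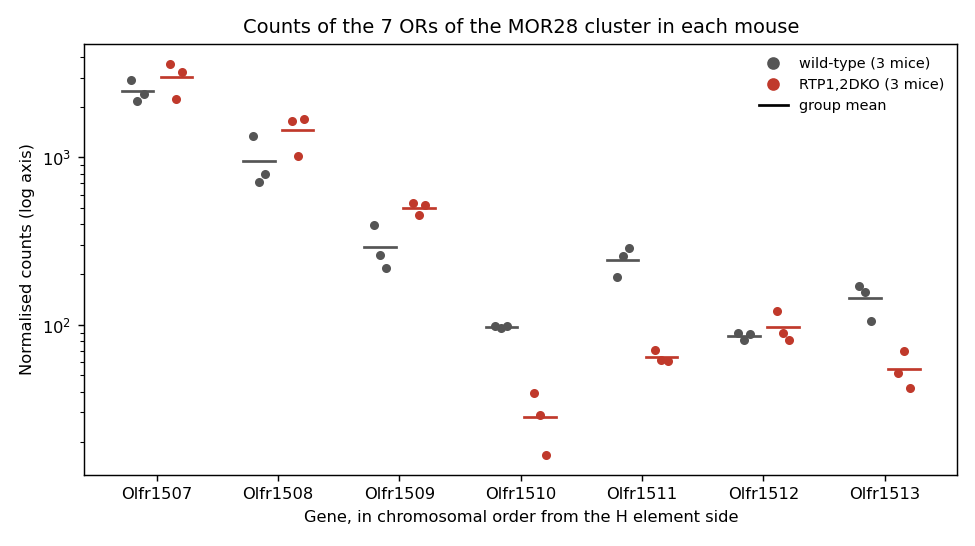
Normalised counts (log axis) of the 7 ORs of the MOR28 cluster in each of the 3 wild-type mice (grey) and 3 RTP1,2DKO mice (red), with group means as lines, in order of distance from the H element. The RTP1,2DKO mean lies above that of the wild-type for Olfr1507 to Olfr1509, with overlap for the first and second, and every RTP1,2DKO mouse lies below every wild-type mouse for Olfr1510, Olfr1511 and Olfr1513.

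Farther from the H element, 3 of the 4 genes had lower counts in every RTP1,2DKO mouse than in any wild-type mouse, as did 51.6% of all ORs. Olfr1510 had 98.3, 95.4 and 98.1 normalised counts in the wild-type and 39.0, 28.8 and 16.7 in RTP1,2DKO, and its neighbour and near copy Olfr1511 had 193, 257 and 287 against 70.6, 61.9 and 60.8. In neither gene did the groups overlap. Olfr1510 fell by 1.79 on the log2 scale (SE 0.35, adjusted p = 0.0099) and Olfr1511 by 1.93 (SE 0.23, adjusted p = 0.00034). Their sum fell by 1.89 (adjusted p = 0.00018), so the fall did not depend on how reads were divided between them. The falls relative to the typical OR had log2 values of -0.85 for Olfr1510 (adjusted p = 0.035) and -0.98 for Olfr1511 (adjusted p = 0.0014), although with DESeq2 the former had an adjusted p of 0.0537.

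Olfr1512 and Olfr1513, the outermost pair, differed from each other. Olfr1512 had 89.0, 81.1 and 88.2 normalised counts in the wild-type and 121, 89.0 and 81.3 in RTP1,2DKO, and these groups overlapped. Olfr1513 had 170, 156 and 106 against 51.6, 69.8 and 42.1, with every RTP1,2DKO mouse below every wild-type mouse. The log2 fold change of Olfr1512 was 0.17 (SE 0.26, adjusted p = 0.88), while Olfr1513 fell by 1.40 (SE 0.29, adjusted p = 0.0154). Olfr1513 passed the test in 2 of the 6 fits that left out 1 mouse. Relative to the typical OR its value was -0.42 and did not pass the test (adjusted p = 0.21). When the pair was summed, the log2 fold change was -0.60 (adjusted p = 0.195), so neither the fall of Olfr1513 nor the sign of Olfr1512 held for the sum. Against the typical OR, Olfr1512 rose by 1.11 (adjusted p = 0.00052), but its value was 0.35 both for the sum (adjusted p = 0.207) and with libraries scaled to their total OR count (adjusted p = 0.285).

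Within a mouse, the ratio of both sides of the cluster does not depend on any scaling of the library. The summed counts of Olfr1507 to Olfr1509 were 8.41, 5.32 and 5.89 times those of Olfr1510 to Olfr1513 in the wild-type mice and 20.6, 14.8 and 27.1 times in RTP1,2DKO. The groups did not overlap. On the log2 scale the ratio was 2.68 ± 0.35 (mean ± SD, n = 3) for wild-type mice and 4.34 ± 0.44 for RTP1,2DKO mice. The side near the H element had 4628, 3137 and 3410 normalised counts in the wild-type and 5810, 3696 and 5450 in RTP1,2DKO, which overlapped, and the far side 550, 590 and 579 against 282, 249 and 201, which did not. The ratio was formed after the values of the genes had been seen and is a description.

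Per length, the order of levels in the wild-type was led by Olfr1507 with 48.0 ± 13.1 TPM (SD, n = 3), followed by Olfr1511 with 16.02 ± 3.09, Olfr1509 with 8.93 ± 4.19, Olfr1508 with 7.65 ± 5.28, Olfr1513 with 3.84 ± 1.64, Olfr1510 with 2.64 ± 0.60 and Olfr1512 with 1.79 ± 0.31. In the single wild-type mice Olfr1509 had 13.3, 8.42 and 5.01 TPM and Olfr1508 13.7, 5.08 and 4.15, so their order was not the same in every mouse.

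The largest of the ranges, Olfr720 to Olfr750, is also on chromosome 14. Of its 29 genes, 27 lie from Olfr722 to Olfr749 within 850.8 kb (chr14:49894258-50745094), Olfr750 lies beyond them (chr14:51066301-51074435), and Olfr720 lies far from all others (chr14:14171738-14186838). In the all-gene fit 3 of the 29 rose and 11 fell, beside 4.32% and 37.9% of all ORs. The median log2 fold change was -0.50, and 15 did not pass the test. Genes that rose and genes that fell were interspersed along the chromosome, and some were direct neighbours. In the OR-normalised fit 14 rose and 6 fell, beside 28.9% and 25.7% of all ORs, with a median of 0.44.

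Olfr743 had 988, 926 and 816 normalised counts in the wild-type and 1575, 1278 and 1664 in RTP1,2DKO. The lowest RTP1,2DKO mouse was above the highest wild-type mouse. It rose by 0.73 on the log2 scale (SE 0.14, adjusted p = 0.0075), and in each of the 6 fits that left out 1 mouse. Olfr748 had 97.2, 112 and 101 normalised counts against 191, 199 and 217, and Olfr727 had 919, 854 and 902 against 1434, 1104 and 1546, again without overlap. Olfr748 rose by 0.96 (SE 0.20, adjusted p = 0.0157), in 4 of those 6 fits, and Olfr727 by 0.61 (SE 0.14, adjusted p = 0.0281), in 2 of them.

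Olfr729 was the OR of this range with the most counts, at 1605, 1475 and 2127 in the wild-type and 2075, 2201 and 3324 in RTP1,2DKO. Wild-type replicate 3 lay above RTP1,2DKO replicate 1, so the groups overlapped. Its log2 fold change was 0.55 (SE 0.19, adjusted p = 0.191), and with the replicate block it passed the test (adjusted p = 0.0150). Olfr723 had 41.4, 98.3 and 54.0 normalised counts against 93.8, 140 and 72.5, and its copy Olfr724, 98.5% identical, had 57.9, 28.6 and 46.3 against 73.8, 63.7 and 72.5. The groups overlapped for the former and not for the latter. Both had a log2 fold change of 0.66, and neither passed (adjusted p = 0.552 and 0.511). Only 34.1% and 38.4% of their words are their own, and their sum gave 0.66 (adjusted p = 0.196). Relative to the typical OR all 6 of these genes rose, by 1.495 to 1.93 on the log2 scale.

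The genes that fell included abundant ones. Olfr741 had 669, 772 and 740 normalised counts in the wild-type and 169, 141 and 250 in RTP1,2DKO. The groups lay far apart. It fell by 1.96 on the log2 scale (SE 0.20, adjusted p = 0.00014) and relative to the typical OR by 1.00 (adjusted p = 0.00029). On the map it is followed by Olfr742 and then Olfr743, which are its close copies. Olfr742, which is named here after its values were seen, had 266, 249 and 235 normalised counts against 120, 85.5 and 90.2, and fell by 1.34 (adjusted p = 0.0022). Olfr743, the next gene, rose, although its coding sequence is 94.5% identical to that of Olfr742. The stretch that Olfr742 and Olfr743 share without a difference is shown to make that likeness visible. It has 129 bases and lies at chr14:50515634-50515762, plus strand, in Olfr742.
Olfr742 and Olfr743: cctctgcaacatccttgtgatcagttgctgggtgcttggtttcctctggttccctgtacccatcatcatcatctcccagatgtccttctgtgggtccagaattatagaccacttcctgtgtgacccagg
The values of Olfr741 and Olfr742 summed fell by 1.78 (adjusted p = 5.6e-05).

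A similar pair was Olfr726 and Olfr727, whose coding sequences are 94.0% identical. Olfr726 had 578, 512 and 568 normalised counts in the wild-type and 307, 230 and 261 in RTP1,2DKO. It fell by 1.06 (SE 0.16, adjusted p = 0.0018), the size of the OR median, and differed by -0.12 from the typical OR (adjusted p = 0.67). Olfr725, which is 96.0% identical to Olfr726, had 54.8, 80.1 and 76.1 against 12.6, 21.8 and 18.6 and fell by 1.98 (SE 0.38, adjusted p = 0.0093). Only 66.4% of its words are its own, and the sum of Olfr725 and Olfr726 fell by 1.14 (adjusted p = 0.00072).

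Olfr720, which lies apart from the cluster, had 250, 146 and 187 normalised counts against 83.2, 65.4 and 41.2, Olfr745 had 266, 198 and 271 against 67.4, 87.2 and 79.4, and Olfr749 had 178, 189 and 136 against 22.1, 49.7 and 75.5. In none of them did the groups overlap. Olfr720 fell by 1.62 (adjusted p = 0.0069), Olfr745 by 1.65 (adjusted p = 0.00081) and Olfr749 by 1.76 (adjusted p = 0.0139). Their OR-normalised values were -0.69, -0.70 and -0.76, and passed the test over all mice, but in only 3, 3 and 2 of the 6 fits that left out 1 mouse. Only 45.6% of the words of Olfr749 are its own. Its coding sequence is 98.4% identical to that of another member of this range, which did not pass the all-gene test. How reads were divided between the 2 genes bears on the value of Olfr749. With counts scaled over ORs, Olfr749 had 125, 118 and 107 in the wild-type and 27.0, 72.1 and 109 in RTP1,2DKO, which overlapped. On that scale its near copy had 40.1, 32.8 and 20.9 against 61.8, 8.86 and 57.8. Olfr746, named after its values were seen, had 7.2, 13.4 and 0 normalised counts in the wild-type and 0 in every RTP1,2DKO mouse, and is 1 of the 6 called lower relative to the typical OR (adjusted p = 0.0419), but not with the replicate block (adjusted p = 0.0954), which left 5. With 21 counts over the wild-type mice set against a floor of 3 counts over the RTP1,2DKO mice, the ratio was 7.13-fold. The counting error of the wild-type counts is not in that ratio, so it is not a lower bound. The median of the range was the same with Olfr746 at that value. Its coding sequence is 95.9% identical to that of Olfr748, which rose, and only 48.8% of its words are its own. The 4 other members that fell had log2 fold changes of -1.48 to -0.79, and the 11 not named that did not pass the test had values of -0.69 to 0.60.

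**Figure D2:**
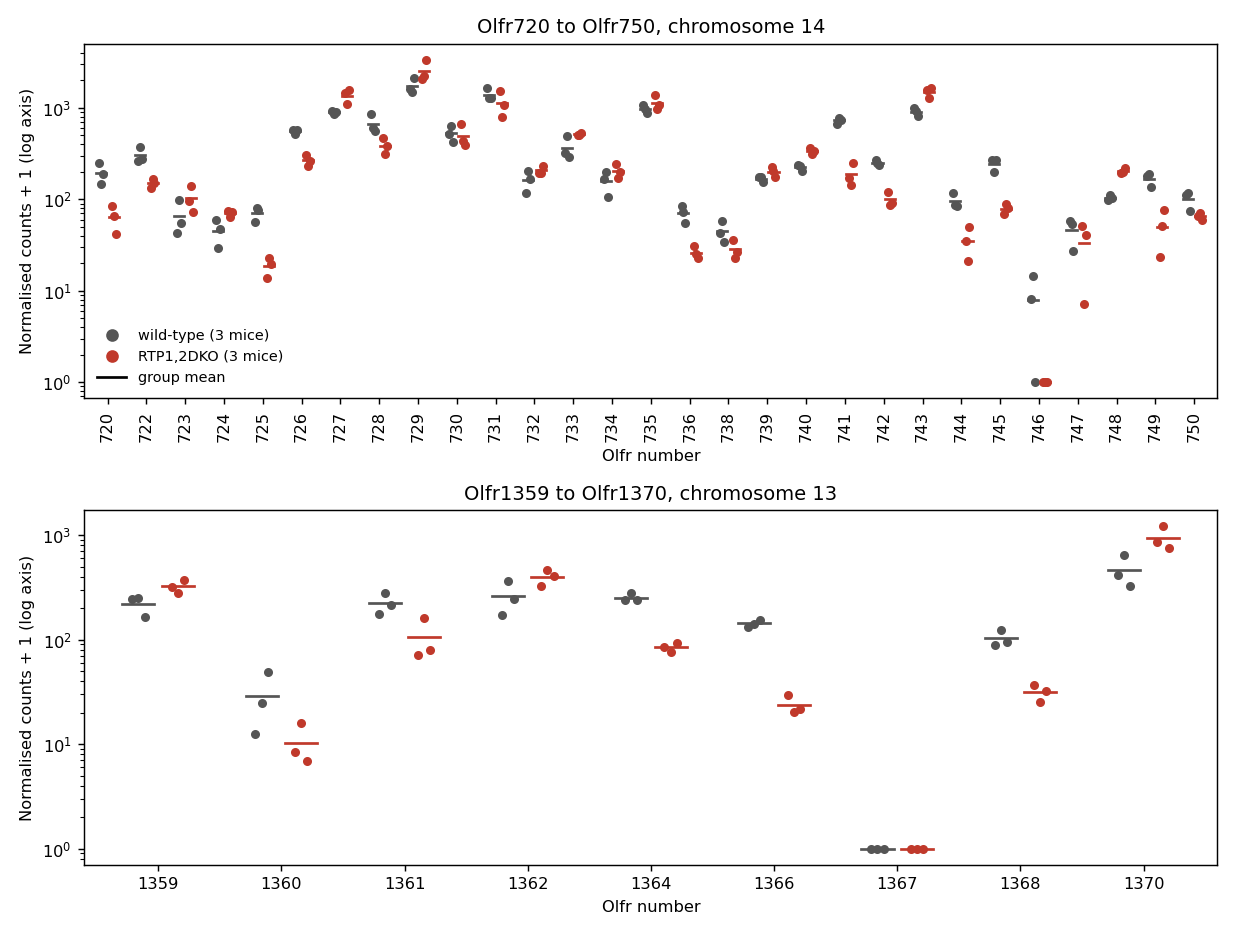
Normalised counts plus 1 (log axis) of every OR of the Olfr720 to Olfr750 range (top) and of the Olfr1359 to Olfr1370 range (bottom) in 3 wild-type mice (grey) and 3 RTP1,2DKO mice (red), with group means as lines. Olfr741 and Olfr743 lie close to each other in the wild-type and apart in RTP1,2DKO, as do Olfr1362 and Olfr1364.

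Levels per length are given for the 5 members with the most TPM in the wild-type. Olfr743 had 43.1 ± 13.05 TPM (SD, n = 3), Olfr741 34.8 ± 9.2, Olfr726 26.4 ± 4.2 and Olfr729 15.1 ± 1.3. The spreads of Olfr743 and Olfr741 between mice overlapped, but within each wild-type mouse Olfr743 was higher. The pairs were 52.6 against 36.7, 48.4 against 42.9 and 28.2 against 24.8 TPM. Olfr727 was listed at 176.5 ± 29.2 TPM, but between 79.8% and 86.8% of this came from 1 transcript of 468 bases with an effective length of 70.3 bases. Without that transcript the gene had 18.9 to 28.6 TPM in the wild-type.

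The Olfr1359 to Olfr1370 range lies on chromosome 13 over 637.5 kb (chr13:21069334-21706833). Olfr1367 had 0 counts in every mouse, which allows up to 3 counts per library, and 8 of its 9 genes were tested. In the all-gene fit 1 rose and 3 fell, beside 4.32% and 37.9% of all ORs, with a median log2 fold change of -1.32. In the OR-normalised fit 3 rose and 3 fell, beside 28.9% and 25.7% of all ORs, with a median of -0.35. With the replicate block 2 rose and 4 fell in the all-gene fit, beside 6.34% and 38.9% of all ORs. The fold changes of the 8 genes lay between -2.64 and 1.02.

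Olfr1370, at one end of the cluster, had 415, 646 and 326 normalised counts in the wild-type and 863, 1207 and 751 in RTP1,2DKO. Replicate 2 was the highest of each group, and the groups did not overlap. It rose by 1.02 on the log2 scale (SE 0.24, adjusted p = 0.0303), in 2 of the 6 fits that left out 1 mouse. Its share of the counts of its range was 28.2%, 30.8% and 22.04% in the wild-type and 49.8%, 53.9% and 42.7% in RTP1,2DKO. None of its 31-base words occur in another gene.

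Olfr1366 had 131, 140 and 153 normalised counts in the wild-type and 28.5, 19.2 and 20.6 in RTP1,2DKO. It fell by 2.64 (SE 0.29, adjusted p = 0.00022), the largest fall of a member with a mean of 10 counts or more, and by 1.70 relative to the typical OR (adjusted p = 1.8e-05). Olfr1364 had 237, 276 and 237 against 84.3, 75.9 and 92.1 and Olfr1368 had 87.9, 123 and 93.7 against 35.8, 24.4 and 31.4, likewise without overlap. Olfr1364 fell by 1.57 (adjusted p = 0.00064) and Olfr1368 by 1.74 (adjusted p = 0.0060). In the OR-normalised fit their values were -0.61 (adjusted p = 0.0356) and -0.78 (adjusted p = 0.0443), and these passed the test in 1 and 0 of the 6 fits that left out 1 mouse.

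The remaining genes of this range did not pass the all-gene fit without the replicate block. Olfr1362, next to Olfr1364, had 170, 360 and 244 normalised counts in the wild-type and 326, 460 and 405 in RTP1,2DKO, which overlapped. Its log2 fold change was 0.62 (adjusted p = 0.291), and 0.67 with the block, which passed the test (adjusted p = 0.0414). Olfr1361 had 175, 279 and 215 against 70.6, 161 and 79.4, without overlap, and a log2 fold change of -1.10 (adjusted p = 0.0842), or -1.16 with the block (adjusted p = 0.0069). Olfr1359 had 245, 250 and 163 against 317, 277 and 372, also without overlap, and a value of 0.55 (adjusted p = 0.245). Its copy Olfr1360, 99.7% identical in coding sequence, had only 11.4, 23.9 and 48.5 against 7.4, 14.8 and 5.9, and a value of -1.55 (adjusted p = 0.372). Their sum had a log2 fold change of 0.42 (adjusted p = 0.351).

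**Figure D3:**
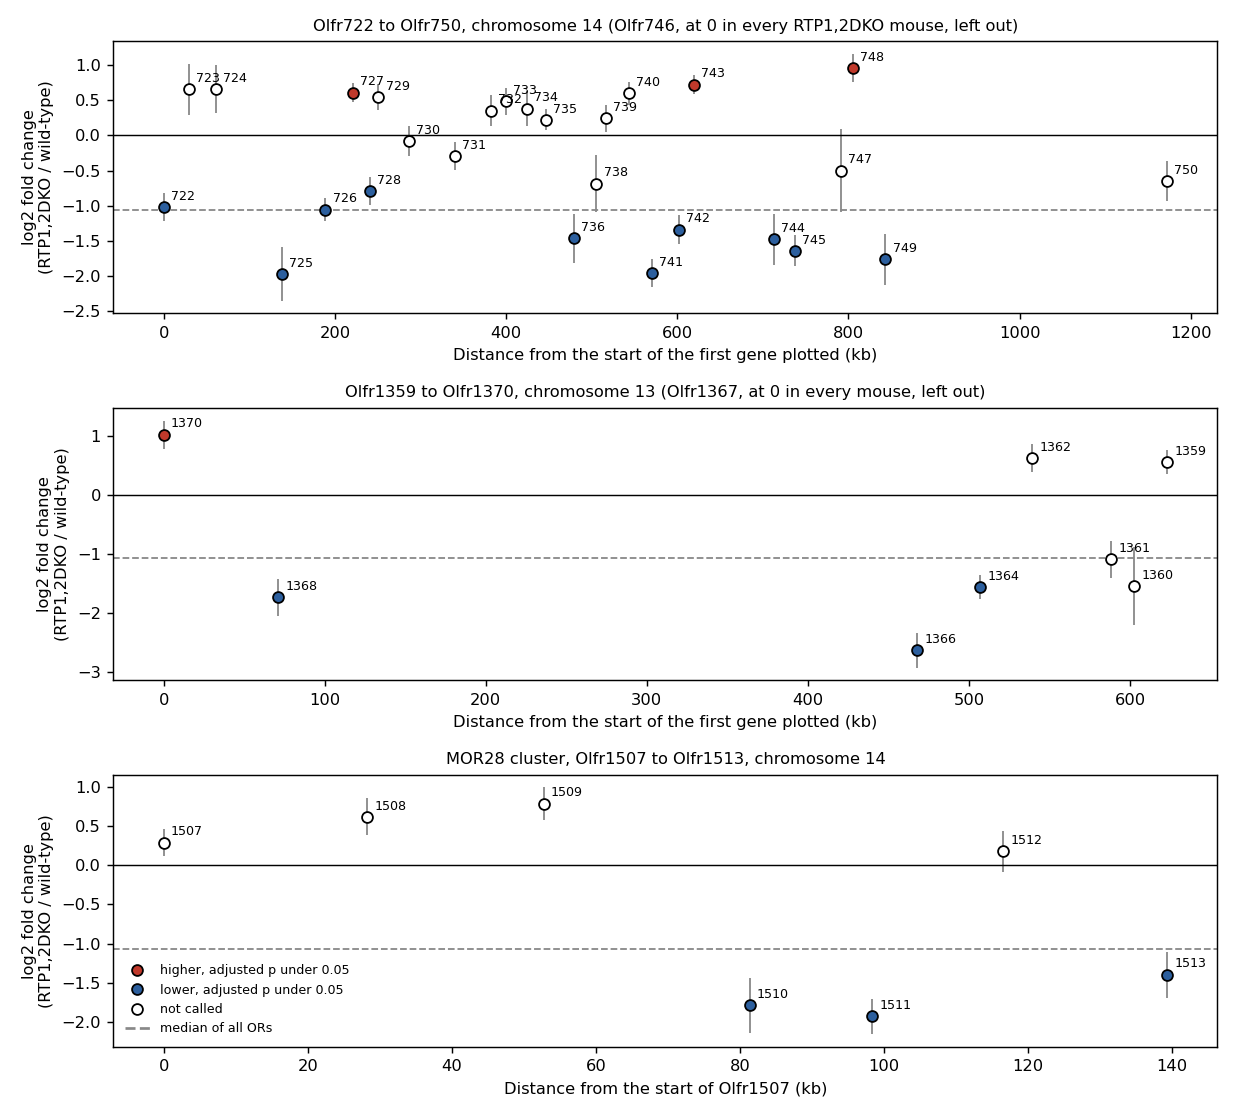
Log2 fold change (RTP1,2DKO over wild-type, all-gene fit; bars are standard errors, 3 mice per group) of each OR against the distance of its transcript start in kb, for Olfr722 to Olfr750, Olfr1359 to Olfr1370 and the MOR28 cluster. Red and blue points passed the test as higher and lower, white points did not, and the dashed line is the OR median of -1.06; red and blue points lie beside each other in the upper panels, and in the lowest the blue points lie over 80 kb from the start of Olfr1507.

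Over the 3 ranges together, 44 members had counts and 43 had a mean of 10 or more. In the all-gene fit 4 rose (9.09% of those tested) and 17 fell (38.6%), beside 4.32% and 37.9% of all ORs, with a median log2 fold change of -0.58 beside -1.06. With the replicate block 8 rose (18.2%) and 18 fell (40.9%), beside 6.34% and 38.9% of all ORs. The number that rose was 2 without wild-type replicate 3 and without any single RTP1,2DKO mouse. Every RTP1,2DKO mouse lay above every wild-type mouse for 9 members (20.5%) and below for 19 (43.2%), beside 11.8% and 51.6% of all ORs. Relative to the typical OR 21 rose (47.7%) and 11 fell (25%), beside 28.9% and 25.7% of all ORs, with a median of 0.38 beside -0.12. When libraries were scaled to their total OR count in place of the size factors, the split was 14 that rose and 19 that fell. No member rose in one fit and fell in the other.

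**Figure D4:**
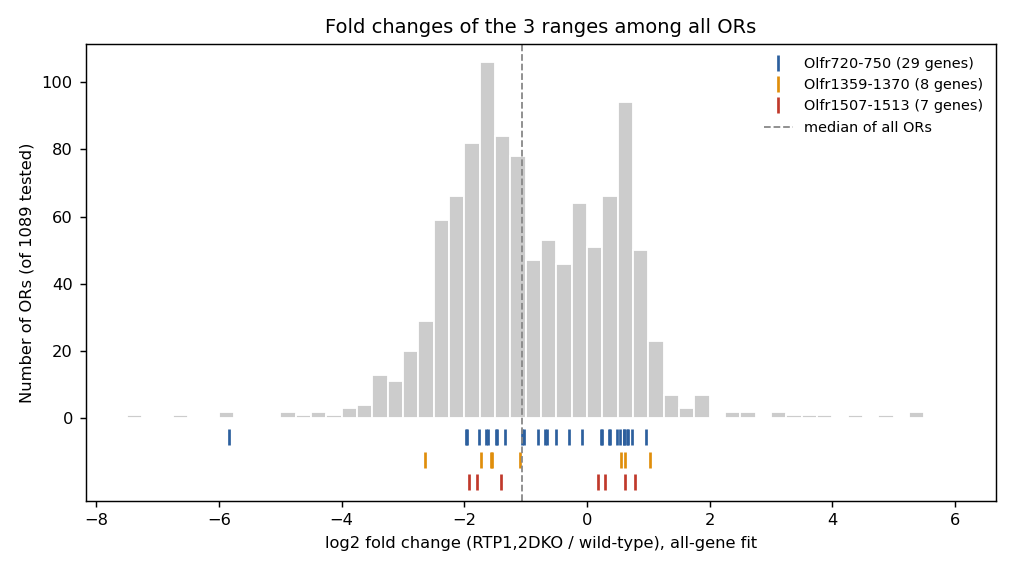
Number of ORs by log2 fold change in the all-gene fit (grey bars, 1089 ORs), with the members of the 3 ranges as coloured ticks below the bars and the OR median of -1.06 as a dashed line. Each range has ticks on both sides of that line, and the MOR28 cluster has 3 below and 4 above it.

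The 3 ranges were also compared by their share of all OR counts in a mouse. The Olfr720 to Olfr750 range held 3.65%, 3.12% and 3.50% of OR counts in the wild-type and 4.003%, 3.76% and 4.08% in RTP1,2DKO. Every RTP1,2DKO mouse was above every wild-type mouse, by 0.52 percentage points on average. The MOR28 cluster held 1.61%, 1.04% and 1.29% against 2.01%, 1.51% and 1.85%, and the Olfr1359 to Olfr1370 range 0.458%, 0.587% and 0.477% against 0.572%, 0.855% and 0.575%. In both ranges the groups overlapped, while the RTP1,2DKO mouse was higher in 3 of 3 pairs of mice with the same number. Olfr907, an OR outside these ranges, alone held 19.3%, 22.2% and 23.2% of OR counts in the wild-type and 23.4%, 27.6% and 33.4% in RTP1,2DKO. Leaving Olfr907 out therefore raises the share of any other OR by a larger factor in every RTP1,2DKO mouse than in any wild-type mouse. Without Olfr907 the MOR28 cluster's share also was higher in every RTP1,2DKO mouse than in every wild-type mouse, by 0.82 percentage points. The ratio of the MOR28 cluster to the Olfr720 to Olfr750 range within a mouse was 0.441, 0.334 and 0.368 in the wild-type and 0.503, 0.401 and 0.453 in RTP1,2DKO. These groups overlapped, and the RTP1,2DKO mouse was higher in 3 of 3 pairs. By TPM the MOR28 cluster's share differed by 0.22 percentage points, with overlap.

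Zone labels were taken from the study's list of ORs, which labels only ORs it called in these same mice, so they are not independent of the changes. The list places 11 tested members dorsally and 25 ventrally. In the all-gene fit 1 dorsal member rose and 7 fell, with a median log2 fold change of -1.65, beside 17 that rose, 162 that fell and a median of -1.75 over all 288 ORs labelled dorsal. Of the ventral members 3 rose and 10 fell, with a median of 0.35, beside 30 that rose, 247 that fell and a median of -1.35 over all 443 ORs labelled ventral. None of the 8 members without a label passed the test, beside 4 of 358 ORs without one. In the MOR28 cluster the zone and the distance from the H element cannot be told apart, since Olfr1507, Olfr1508 and Olfr1509 are labelled ventral, Olfr1510, Olfr1511 and Olfr1513 dorsal, and Olfr1512 has no label. In the Olfr720 to Olfr750 range the 5 dorsal members lie together from Olfr744 to Olfr749, and Olfr748 rose while its neighbour Olfr749 fell.

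The genes that act in OR choice did not pass the test in the all-gene fit. Of 16 such genes, among them Lhx2 and Ldb1, whose proteins bind OR enhancers, none rose or fell, with a median log2 fold change of 0.07. Over all genes 3.61% passed, so a list of this size says little. Lhx2 had 5843, 7289 and 5117 normalised counts in the wild-type and 7920, 6439 and 6474 in RTP1,2DKO, and Ldb1 had 2695, 1631 and 1766 against 2107, 1991 and 2159, each with overlap. The groups did not overlap for Kdm1a, which was higher in RTP1,2DKO, nor for Ebf2 and Ebf4, which were lower. Their log2 fold changes were 0.18, -0.29 and -0.34.

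Coding sequences were alike within a range to a similar extent. The median identity between members was 59.5% in the Olfr720 to Olfr750 range, 63.5% in the Olfr1359 to Olfr1370 range and 61.1% in the MOR28 cluster, and 8 pairs reached 95%. Of the 45 members, 32 had 80% or more of their 31-base words to themselves and 13 had less.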

How the data were processed

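Gene expression was measured by RNA-Seq in olfactory mucosa, with 3 mice per genotype. The authors ran kallisto (version not given in the sources used here) on mouse transcripts with extended OR annotations, with mm10 named in the submitters' processing notes, and deposited estimated counts and TPM per transcript. The labels name a KAPA stranded kit and the methods a TruSeq stranded one. Estimated counts, deposited by the authors without normalization, were summed per gene and rounded for the tests. TPM values, which the authors' program scaled to a fixed total, were used for levels per length.

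Tests used edgeR 4.0.16 (quasi-likelihood) with size factors by the median of ratios (DESeq2 1.42.0, R 4.3.3) and Benjamini-Hochberg adjustment, leaving out genes at 0 in all mice. Summaries used Python 3.11.15, numpy 2.4.6 and pandas 2.3.3. Standard errors were derived from the fold change and its F statistic. The p-values measure the spread between mice. Intervals and floors cover counting error only. Totals per mouse lay between 31125410 and 41636996. Gene positions, 31-base words and coding sequences came from GENCODE M21 (GRCm38), not necessarily the authors' annotation. The fits were tested on simulated data.

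In the labels each group has mice 1 to 3, and the methods describe littermates. Deviations from the group means over 18133 genes correlated at 0.139, 0.179 and 0.103 between mice with the same number and at -0.219 to 0.093 otherwise, so the numbers were taken to pair the mice, and the blocked value is given beside a result where it changes a call or moves a count by over 1.5 times. The labels do not state a pairing, and correlations this small among 3 mice per group cannot establish it. Calls made only with the block, and comparisons by pair, rest on that assumption.

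The text names every gene of the MOR28 cluster and, in each other range, the 5 members with the most TPM in the wild-type and the 5 with the largest increase and decrease among those with a mean of 10 counts or more, 27 of 45 members in all. The members and lists were chosen with earlier results of these data known. Alternatives were DESeq2's Wald test, a low-count filter, TMM normalization, the replicate block, scaling to the total OR count, each mouse left out, other denominators for shares, and, chosen after seeing the data, the sum of neighbours at 95% identity or more.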

Additional observations from a re-analysis of the deposited data

How the results depend on the processing

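Among the members tested, TMM normalization changed no count of calls, nor the call of any named gene. The number of members that rose in the all-gene fit was 4, 8 with the replicate block, 6 with DESeq2 and 2 to 5 with each mouse left out, and the number that fell was 17, 18 with the block or with DESeq2, and 13 to 16. Olfr1361 and Olfr1509 passed there with DESeq2 (adjusted p = 0.0168 and 0.0115). In the OR-normalised fit 21 rose (20 to 22 with each mouse left out, 14 scaled to the total OR count), and 11 fell, but 10 with the block, 5 with DESeq2, 19 with libraries scaled to the total OR count and 4 to 8 with each mouse left out, so the falls relative to the typical OR were the least stable calls. With the block, Olfr729, Olfr1361, Olfr1362, Olfr1508 and Olfr1509 passed in the all-gene fit, and in the OR-normalised fit Olfr746 did not. The block changed no other call of a member named in the text. With the low-count filter Olfr1370 had an adjusted p of 0.055 in the all-gene fit. The difference in the share of OR counts of the Olfr720 to Olfr750 range was 0.52 percentage points, 1.15 without Olfr907 and 1.25 by TPM, and that of the MOR28 cluster 0.48, 0.82 without Olfr907 and 0.22 by TPM. The TPM of the Olfr720 to Olfr750 range includes the short transcript that holds most of the TPM of Olfr727. The part of that transcript in the difference was not tested. Among the members named for their range, TPM or fold change, signs turned only for values that had not passed the test. Olfr746, named after its values were seen, is not one of these and had passed as lower relative to the typical OR. Its sum with Olfr748 had a log2 fold change of 0.87 in the all-gene fit (adjusted p = 0.0320). The fall of Olfr746 therefore did not hold for that sum. Olfr1512 was -0.015 in the all-gene fit without RTP1,2DKO replicate 1 (up to 0.28 with each mouse left out) and -0.60 summed with its neighbour. Olfr1360 was 0.42 summed with Olfr1359, and in the OR-normalised fit 1.39 when summed and -1.16 to 0.18 with each mouse left out, the highest without wild-type replicate 3. In that fit Olfr1361 was 0.01 without wild-type replicate 2, 0.18 without RTP1,2DKO replicate 1 and 0.07 without RTP1,2DKO replicate 3, and Olfr1513 was 0.35 summed with Olfr1512. Apart from the sums, which merge genes that moved apart, the cause was not tested.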
